A study of Mus musculus with 18 samples.

Results

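The 10 integrin chains described here were *Itgam*, *Itgax*, *Itgal*, *Itgb2*, *Itga4*, *Itga6*, *Itga9*, *Itgav*, *Itgb1* and *Itgb5*, chosen by name as chains of leukocyte and matrix adhesion from 24421 gene symbols. All 10 passed the filter on low counts, which left 10550 genes. They were measured by bulk RNA-seq in macrophages sorted from the synovium, the membrane that lines the joint, of adult C57BL/6 (WT) mice. Each of 3 subsets, LYVE1+CX3CR1+, MHCII+CD11c- and MHCII+CD11c+, had 3 libraries from untreated mice, which the labels call Healthy and Control, and 3 from mice taken 8 h after an intravenous dose of immune complexes (IC), made of fluorescent ovalbumin and rabbit antibody to it. The sources used here state no vehicle injection for the untreated mice, and each library pooled the cells of several mice, so the spread between libraries is a spread between pools.

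Integrins are pairs of an alpha and a beta chain that cross the cell membrane, and each pair grips its own set of partners outside the cell. The beta2 chain (*Itgb2*, CD18) is made by leukocytes and pairs with alphaM (*Itgam*, CD11b), alphaX (*Itgax*, CD11c) or alphaL (*Itgal*, CD11a), and these pairs bind ICAM proteins, fibrin or complement fragments on coated particles such as immune complexes. The beta1 and alphaV chains pair more widely and hold cells to fibronectin, laminin, tenascin and vitronectin, and the alphaV-beta5 pair also takes part in the uptake of dying cells.

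The sort used 2 of these chains. All cells were gated as CD11b+, so *Itgam* protein was required in each subset. The MHCII+ cells were divided by CD11c, so the difference of *Itgax* between the MHCII+ subsets was set by the sort. Its difference between MHCII+CD11c+ and LYVE1+CX3CR1+ macrophages also rests on cells chosen for CD11c. Both differences are given as a description. CD11b, CD11c and CD11a are encoded close together on chromosome 7 of GRCm38, with *Itgal* at 127296260 to 127335138, *Itgam* at 128062640 to 128118491 and *Itgax* at 128129547 to 128150657, all on the plus strand. *Itgam* and *Itgax* are 11055 bases apart and had different patterns over the subsets, while *Itgb5* (chromosome 16, 33829665 to 33949338) and *Itgav* (chromosome 2, 83724397 to 83806916) varied together, so a promoter window of 250 bases is shown for each of these 4 genes, before the transcript start that RefSeq's promoter entry uses (GRCm38.p6, plus strand, 5′ to 3′). The RefSeq gene spans begin further upstream for *Itgav* (83722303) and *Itgax* (128129526), so their windows do not precede the first base of the span. The windows are chr7:128062390-128062639, chr7:128129300-128129549, chr2:83724147-83724396 and chr16:33829415-33829664, and capitals mark GAGGAA on either strand, the core letters of sites for PU.1, a factor of myeloid cells.
Itgam: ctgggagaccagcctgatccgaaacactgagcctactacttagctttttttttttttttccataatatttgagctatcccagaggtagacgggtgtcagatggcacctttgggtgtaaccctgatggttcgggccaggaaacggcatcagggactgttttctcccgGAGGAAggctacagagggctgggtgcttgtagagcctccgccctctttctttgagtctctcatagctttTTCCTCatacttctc
Itgax: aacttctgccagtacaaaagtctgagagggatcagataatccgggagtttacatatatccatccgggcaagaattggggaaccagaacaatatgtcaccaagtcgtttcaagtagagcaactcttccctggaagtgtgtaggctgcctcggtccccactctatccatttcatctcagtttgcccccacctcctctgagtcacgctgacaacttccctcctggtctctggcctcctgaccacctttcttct
Itgav: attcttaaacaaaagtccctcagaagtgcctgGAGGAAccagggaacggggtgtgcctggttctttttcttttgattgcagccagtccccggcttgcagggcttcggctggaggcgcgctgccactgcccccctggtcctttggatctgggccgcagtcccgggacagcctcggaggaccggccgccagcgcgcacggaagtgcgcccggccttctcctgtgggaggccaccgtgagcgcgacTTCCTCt
Itgb5: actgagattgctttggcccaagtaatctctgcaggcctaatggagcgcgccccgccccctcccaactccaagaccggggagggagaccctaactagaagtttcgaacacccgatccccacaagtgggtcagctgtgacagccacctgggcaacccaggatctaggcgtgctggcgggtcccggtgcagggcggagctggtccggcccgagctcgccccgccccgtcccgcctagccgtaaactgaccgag
The *Itgam* window held GAGGAA 84 and 15 bases before that listed start and the *Itgav* window 218 and 7 bases before it, and those of *Itgax* and *Itgb5* held none, against 23.3% of 32851 mouse promoter windows of this length with at least 1 match. A match is a run of letters, not a measured binding site. CpG dinucleotides numbered 6 in the *Itgam* window and 5 in the *Itgax* window, near the median of 6 over all windows, and 18 in each of the *Itgav* and *Itgb5* windows. RefSeq windows were matched for 7 of the 10 chains.

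Library totals ran from 245903 to 2172358 counts with a median of 1526180, and the shallowest group was MHCII+CD11c- with IC (245903, 381217 and 973951 counts). Its replicate 2, the smallest library of all, stood apart from the 2 others for several chains, and results that change without it are given both ways. Levels are CPM, a gene's counts relative to its library's total, scaled by edgeR's TMM factors. All 10 macrophage markers were detected in every group, and their summed level ran from 7630 to 18264 CPM. Neutrophil markers (9 measured) summed to 13.2 to 17.2 CPM in untreated LYVE1+CX3CR1+ macrophages, 775 to 1870 in untreated MHCII+CD11c- and 20.4 to 592 in untreated MHCII+CD11c+ macrophages. With IC the sums were 19.2 to 170, 1525 to 4255 and 1047 to 2356 CPM in the same order. Dendritic cell markers (8 measured) summed to 8.76 to 11.3 CPM in untreated LYVE1+CX3CR1+, 127 to 167 in MHCII+CD11c- and 277 to 492 in MHCII+CD11c+ macrophages, and with IC to 2.11 to 3.95, 70.6 to 102 and 201 to 225 CPM. T and NK cell markers (8 measured) summed to 5.92 to 11.3, 48.9 to 97.7 and 80.9 to 109 CPM in the untreated subsets in this order and to 1.69 to 4.74, 11.3 to 34.0 and 71.6 to 78.7 CPM with IC, mostly from *Cd2*, with *Cd3d*, *Cd3e* and *Cd3g*, which define T cells, at or near 0. In bulk samples, fewer cells of a type and less RNA per cell cannot be told apart.

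**Figure D1:**
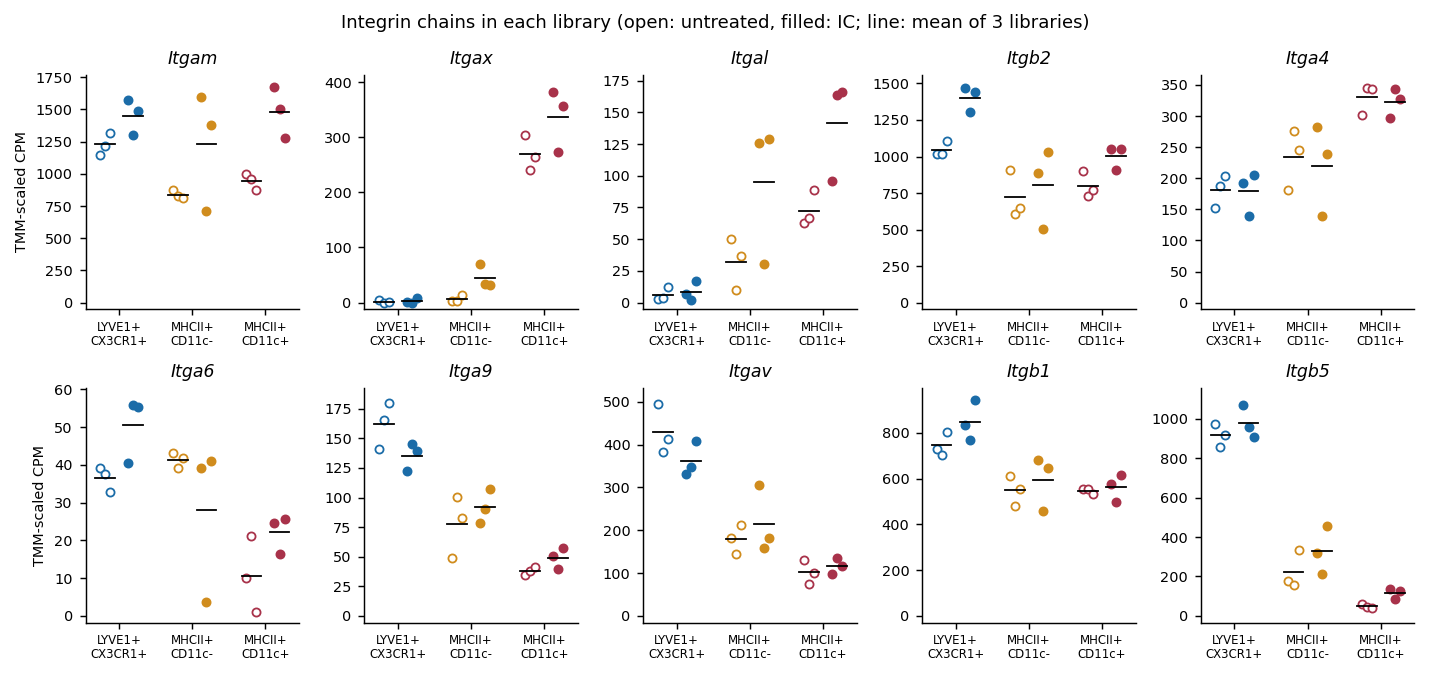
TMM-scaled CPM of the 10 chains (vertical axis, one panel a gene, each with its own scale from 0) in the 18 libraries, by subset, with open points for untreated mice, filled points for IC and a line at the mean of 3 libraries. *Itgb5* and *Itgav* step down from LYVE1+CX3CR1+ to MHCII+CD11c+ macrophages while *Itgax* and *Itga4* step up.

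In untreated mice *Itgb5*, *Itgav* and *Itga9* were highest in LYVE1+CX3CR1+ macrophages, *Itgal* and *Itga4* were higher in MHCII+CD11c+ macrophages, and *Itgam*, *Itgb2* and *Itgb1* differed by at most 0.56 log2 units between any 2 subsets. Between LYVE1+CX3CR1+ and MHCII+CD11c+ macrophages 8 of 10 chains passed the threshold (edgeR's quasi-likelihood test, adjusted p under 0.05 over all genes), where 21.8% of all genes passed. Of these, 5 were higher and 3 lower in LYVE1+CX3CR1+, with the sorted *Itgax* among the lower ones. Between LYVE1+CX3CR1+ and MHCII+CD11c- macrophages 4 of 10 passed, 3 higher and 1 lower, against 11.4% of all genes. Between MHCII+CD11c+ and MHCII+CD11c- macrophages 5 of 10 passed, 1 of them the sorted *Itgax*, against 3.49% of all genes, and the other 4 were all lower in MHCII+CD11c+. The median log2 fold change over the 10 chains was 0.42, 0.49 and 0.08 in these 3 comparisons, and over all genes it was -0.02, -0.02 and -0.01. The 3 comparisons share libraries, since each subset enters 2 of them.

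**Figure D2:**
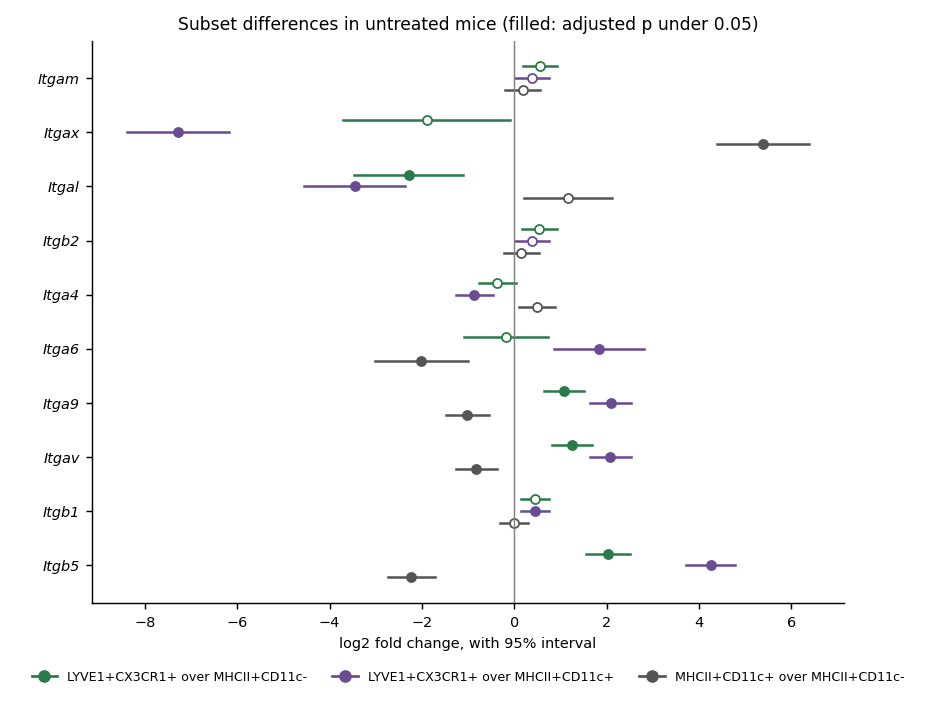
Log2 fold change of each chain between subsets of untreated mice (horizontal axis) with its 95% interval, by comparison, filled where the edgeR adjusted p was under 0.05. *Itgb5* shows the widest spread of the matrix chains, 4.26 for LYVE1+CX3CR1+ over MHCII+CD11c+, while *Itgam*, *Itgb2* and *Itgb1* stay within 0.56 of 0.

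*Itgam*, the alphaM chain of complement receptor 3, was among the most abundant chains in all 3 subsets. It measured 1150, 1220 and 1315 CPM in untreated LYVE1+CX3CR1+ macrophages, 871, 825 and 810 CPM in MHCII+CD11c- and 1001, 960 and 874 CPM in MHCII+CD11c+ macrophages. The LYVE1+CX3CR1+ libraries were above all others of untreated mice, without overlap. The difference was 0.56 ± 0.19 (log2, SE) to MHCII+CD11c- (edgeR adjusted p = 0.0584) and 0.38 ± 0.19 to MHCII+CD11c+ (edgeR adjusted p = 0.175), neither past the threshold with all libraries. Without MHCII+CD11c- IC replicate 2, the *Itgam* differences were 0.57 (edgeR adjusted p = 0.00146) and 0.39 (edgeR adjusted p = 0.0157), and without MHCII+CD11c- IC replicate 1 the former also passed (edgeR adjusted p = 0.0389).

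With IC, *Itgam* measured 1573, 1299 and 1488 CPM in LYVE1+CX3CR1+, 1595, 715 and 1377 CPM in MHCII+CD11c- and 1672, 1502 and 1277 CPM in MHCII+CD11c+ macrophages. All 3 MHCII+CD11c+ libraries with IC were above all 3 untreated ones, and in MHCII+CD11c- macrophages 2 of 3 were above and replicate 2 was below. The log2 fold change of *Itgam* was 0.65 ± 0.19 in MHCII+CD11c+ (edgeR adjusted p = 0.139), 0.57 ± 0.19 in MHCII+CD11c- (edgeR adjusted p = 0.149) and 0.24 ± 0.19 in LYVE1+CX3CR1+ macrophages (edgeR adjusted p = 0.823). Without MHCII+CD11c- IC replicate 2, *Itgam* passed the threshold in both MHCII+ subsets, at 0.65 (edgeR adjusted p = 0.00334) in MHCII+CD11c+ and 0.82 (edgeR adjusted p = 0.00112) in MHCII+CD11c-. Neutrophils also make CD11b, and the neutrophil marker sums given above were higher with IC in every MHCII+CD11c+ library than in any untreated one. Of 9 neutrophil markers tested in MHCII+CD11c+ macrophages 3 passed the threshold, where 0.673% of all genes passed. All 3 were higher with IC, *S100a8* by 2.998 ± 0.66, *Mmp8* by 3.37 ± 0.76 and *Csf3r* by 1.52 ± 0.32 on the log2 scale. Their part in the *Itgam* values was not tested. A gene model on the same strand, Gm49368, shares 68.7% of the exon bases of *Itgam* and is not among the counted symbols, so how reads in those bases were assigned is uncertain.

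*Itgb2*, the shared beta2 partner, had levels close to those of *Itgam*, with a correlation between the 2 chains of r = 0.80 over the 18 libraries. It measured 1017, 1014 and 1109 CPM in untreated LYVE1+CX3CR1+, 907, 604 and 650 CPM in MHCII+CD11c- and 903, 726 and 771 CPM in MHCII+CD11c+ macrophages. LYVE1+CX3CR1+ libraries were again the highest, without overlap, and the differences of 0.54 ± 0.19 and 0.39 ± 0.19 (log2) had edgeR adjusted p of 0.0696 and 0.164. Without MHCII+CD11c- IC replicate 2, the *Itgb2* differences were 0.55 and 0.39, with edgeR adjusted p of 0.0058 and 0.0313, and the former also passed without MHCII+CD11c- untreated replicate 1 or IC replicate 3 (edgeR adjusted p = 0.0265 and 0.0458).

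With IC, *Itgb2* measured 1467, 1302 and 1440 CPM in LYVE1+CX3CR1+, 886, 501 and 1027 CPM in MHCII+CD11c- and 1054, 908 and 1052 CPM in MHCII+CD11c+ macrophages. In LYVE1+CX3CR1+ as in MHCII+CD11c+ macrophages the range with IC began above the highest untreated library. The log2 fold changes of *Itgb2* were 0.42 ± 0.19 and 0.33 ± 0.19, and neither passed the threshold (edgeR adjusted p = 0.498 and 0.644). In both subsets the neutrophil marker sums given above were also higher in every library with IC than in any untreated one. The part of neutrophils in the *Itgb2* values was not tested. Among subsets with IC, *Itgb2* was 0.79 ± 0.19 higher in LYVE1+CX3CR1+ than in MHCII+CD11c- macrophages (edgeR adjusted p = 0.00885). That call was lost with a surrogate variable in the fit (edgeR adjusted p = 0.545) and in a fit to only these libraries (edgeR adjusted p = 0.101). The difference of *Itgb2* to MHCII+CD11c+ with IC, 0.48 ± 0.19, did not pass with all libraries (edgeR adjusted p = 0.0765) and passed without MHCII+CD11c- untreated replicate 1, IC replicate 2 or IC replicate 3 (edgeR adjusted p = 0.0450, 0.00786 and 0.0386).

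*Itgax*, the alphaX chain of complement receptor 4, marked the MHCII+CD11c+ sort, with 304, 240 and 265 CPM in its untreated libraries against 2.33, 2.44 and 13.3 CPM in MHCII+CD11c- and 4.04, 0.0 and 1.08 CPM in LYVE1+CX3CR1+ macrophages. The low groups rested on few reads, 2, 2 and 13 counts in MHCII+CD11c- and 6, 0 and 2 counts in LYVE1+CX3CR1+ libraries, and these 2 subsets overlapped, with a difference of -1.90 ± 0.92 that did not pass (edgeR adjusted p = 0.215). With IC, *Itgax* was at 383, 273 and 357 CPM in MHCII+CD11c+ macrophages, a log2 fold change of 0.32 ± 0.34 (edgeR adjusted p = 0.875).

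In MHCII+CD11c- macrophages, which the gate chose for lacking the CD11c protein, *Itgax* RNA measured 70.6, 33.9 and 31.0 CPM with IC (27, 9 and 31 counts), and each of these exceeded all 3 untreated libraries. *Itgax* rose by 2.75 ± 0.63 on the log2 scale, 6.73-fold (95% interval of the log2 value 1.52 to 3.98, edgeR adjusted p = 0.0261), the only one of the 10 past the threshold in this comparison, in which 1.06% of all genes passed. Its level with IC, a mean of 45.2 ± 22.1 CPM (SD, n = 3), stayed below the 269 ± 32.1 CPM of untreated MHCII+CD11c+ macrophages. The *Itgax* call was lost without MHCII+CD11c- untreated replicate 1 or 2 or IC replicate 1 (edgeR adjusted p = 0.0899, 0.108 and 0.117), and by the DESeq2 Wald test its adjusted p was 0.0597. The dendritic cell marker sum was lower with IC in this subset, as given above, and 1 of 6 tested dendritic cell markers passed, *Cd209a*, which fell by 1.68 ± 0.40 on the log2 scale, while *Ccr7* had a mean of 39.9 CPM in untreated mice and 49.8 with IC. Of 8 tested monocyte markers 1 passed, *Plac8*, which rose by 2.42 ± 0.57, while *Ccr2* had means of 566 and 393 CPM and *Ace* of 36.2 and 21.8 CPM. The part of these cells in the *Itgax* value was not tested. In LYVE1+CX3CR1+ macrophages with IC *Itgax* stayed low, at 1.69, 0.0 and 8.16 CPM (3, 0 and 17 counts), a log2 fold change of 1.04 ± 0.90 to untreated mice (edgeR adjusted p = 0.851) and of -3.61 ± 0.60 to MHCII+CD11c- macrophages with IC (edgeR adjusted p = 0.00017). The difference between the IC responses of *Itgax* in MHCII+CD11c+ and MHCII+CD11c- macrophages was -2.43 ± 0.72 (edgeR adjusted p = 0.684).

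*Itgal*, the alphaL chain of LFA-1, through which leukocytes bind ICAM proteins, was low in LYVE1+CX3CR1+ and higher in both MHCII+ subsets. It measured 2.70, 3.76 and 12.4 CPM in untreated LYVE1+CX3CR1+, 49.996, 9.78 and 36.8 CPM in MHCII+CD11c- and 62.5, 66.4 and 88.7 CPM in MHCII+CD11c+ macrophages. LYVE1+CX3CR1+ macrophages overlapped with MHCII+CD11c- in 1 library and not with MHCII+CD11c+ macrophages. The log2 fold change of *Itgal* in LYVE1+CX3CR1+ was -3.45 ± 0.56 against MHCII+CD11c+ (edgeR adjusted p = 3.69e-05) and -2.29 ± 0.61 against MHCII+CD11c- macrophages (edgeR adjusted p = 0.0121). The second *Itgal* call was lost without LYVE1+CX3CR1+ untreated replicate 1 or 2 or MHCII+CD11c- untreated replicate 1 (edgeR adjusted p = 0.0704, 0.0643 and 0.101).

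With IC, *Itgal* measured 6.77, 2.11 and 16.8 CPM in LYVE1+CX3CR1+, 126, 30.1 and 129 CPM in MHCII+CD11c- and 95.6, 164 and 166 CPM in MHCII+CD11c+ macrophages. The MHCII+CD11c+ libraries with IC were all above the untreated ones, and 2 of 3 MHCII+CD11c- libraries were, replicate 2 being the exception. The log2 fold changes were 0.98 ± 0.44 in MHCII+CD11c+ (edgeR adjusted p = 0.470) and 1.63 ± 0.51 in MHCII+CD11c- macrophages (edgeR adjusted p = 0.118), and without MHCII+CD11c- IC replicate 2 the latter was 1.97 (edgeR adjusted p = 0.0330). *Itgal* with IC was again lower in LYVE1+CX3CR1+ macrophages, with log2 fold changes of -3.52 ± 0.55 against MHCII+CD11c- and -4.02 ± 0.53 against MHCII+CD11c+ (edgeR adjusted p = 8.26e-05 and 2.62e-06). B cell markers (7 measured) summed to 0.0 to 4.74 CPM in LYVE1+CX3CR1+, 211 to 373 in MHCII+CD11c- and 70.9 to 105 in MHCII+CD11c+ libraries, and B cells and neutrophils also make LFA-1. Their part in the *Itgal* differences was not tested.

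*Itga4*, which with beta1 forms VLA-4 and with beta7 a second receptor for VCAM1 and fibronectin, was lowest in LYVE1+CX3CR1+ and highest in MHCII+CD11c+ macrophages. It measured 152, 188 and 203 CPM in untreated LYVE1+CX3CR1+, 181, 276 and 246 CPM in MHCII+CD11c- and 302, 346 and 343 CPM in MHCII+CD11c+ macrophages. The outer groups did not overlap and the middle one overlapped with LYVE1+CX3CR1+. The log2 fold change of *Itga4* between LYVE1+CX3CR1+ and MHCII+CD11c+ macrophages was -0.86 ± 0.20 (edgeR adjusted p = 0.00202), and those of LYVE1+CX3CR1+ against MHCII+CD11c- (-0.37 ± 0.20) and of MHCII+CD11c+ against MHCII+CD11c- (0.49 ± 0.20) did not pass (edgeR adjusted p = 0.291 and 0.209). With IC the first of these was -0.85 ± 0.20 (edgeR adjusted p = 0.00294). The level of *Itga4* with IC, 193, 140 and 206 CPM in LYVE1+CX3CR1+, 282, 139 and 238 CPM in MHCII+CD11c- and 296, 343 and 328 CPM in MHCII+CD11c+ macrophages, overlapped with that of untreated mice in each subset. Its response to IC was between -0.06 and -0.02 on the log2 scale in the 3 subsets, with 95% intervals that together reached from -0.49 to 0.38. Exons of *Cerkl*, on the opposite strand, cover 8.04% of the exon bases of *Itga4*, and the strand setting of the counting is not given in the sources used here.

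*Itgb7*, the other partner of alpha4, is not one of the 10 chains and followed the same order more steeply, at 8.76, 11.9 and 5.38 CPM in untreated LYVE1+CX3CR1+, 48.8, 15.9 and 34.7 CPM in MHCII+CD11c- and 158, 197 and 202 CPM in MHCII+CD11c+ macrophages. The 3 groups did not overlap. *Itgb7* was higher in MHCII+CD11c+ than in MHCII+CD11c- macrophages by 2.47 ± 0.35 log2 units (edgeR adjusted p = 0.000147), and lower in LYVE1+CX3CR1+ than in either. With IC it was at 80.2, 113 and 108 CPM in MHCII+CD11c+ macrophages, below all 3 untreated libraries, a difference of -0.87 ± 0.32 that did not pass (edgeR adjusted p = 0.280). The dendritic cell marker sums given above had the same order over the subsets and were lower with IC, while the B cell marker sums were highest in MHCII+CD11c-. The part of such cells in the *Itga4* and *Itgb7* values was not tested.

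*Itgb1*, the partner of alpha4, alpha6 and alpha9 among others, was abundant and nearly even over the subsets. It measured 731, 702 and 801 CPM in untreated LYVE1+CX3CR1+, 612, 480 and 553 CPM in MHCII+CD11c- and 554, 555 and 534 CPM in MHCII+CD11c+ macrophages. The LYVE1+CX3CR1+ libraries were the highest without overlap, and those of the MHCII+ subsets overlapped. *Itgb1* was 0.44 ± 0.15 log2 units higher in LYVE1+CX3CR1+ than in MHCII+CD11c+ macrophages (edgeR adjusted p = 0.0384), a call lost when any 1 of these 6 libraries was left out (edgeR adjusted p from 0.0557 to 0.145). Against MHCII+CD11c- macrophages the *Itgb1* difference was 0.44 ± 0.16 (edgeR adjusted p = 0.0667), and 0.45 without MHCII+CD11c- IC replicate 2 (edgeR adjusted p = 0.0123).

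With IC, *Itgb1* measured 835, 768 and 943 CPM in LYVE1+CX3CR1+, 682, 459 and 645 CPM in MHCII+CD11c- and 575, 499 and 614 CPM in MHCII+CD11c+ macrophages. LYVE1+CX3CR1+ libraries were again the highest, by 0.59 ± 0.15 log2 units over MHCII+CD11c+ (edgeR adjusted p = 0.00643) and 0.50 ± 0.16 over MHCII+CD11c- macrophages (edgeR adjusted p = 0.0419). The second *Itgb1* call was lost without MHCII+CD11c- IC replicate 2, any 1 LYVE1+CX3CR1+ IC library, or MHCII+CD11c+ untreated replicate 2 or 3 (edgeR adjusted p from 0.0513 to 0.152). The log2 fold change of *Itgb1* with IC was between 0.04 and 0.19 in the 3 subsets, none past the threshold.

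*Itga6*, a laminin receptor chain, was one of the least abundant of the 10. It measured 39.1, 37.6 and 32.8 CPM in untreated LYVE1+CX3CR1+, 43.0, 39.1 and 41.9 CPM in MHCII+CD11c- and 9.98, 21.0 and 0.96 CPM in MHCII+CD11c+ macrophages, the last of these from 2 counts. The MHCII+CD11c+ libraries were the lowest, spread widely and did not overlap with the others. LYVE1+CX3CR1+ and MHCII+CD11c- libraries nearly met, at 39.09 and 39.12 CPM, and their difference did not pass the threshold. *Itga6* was higher in LYVE1+CX3CR1+ than in MHCII+CD11c+ macrophages by 1.83 ± 0.50 log2 units (edgeR adjusted p = 0.00791) and its log2 fold change in MHCII+CD11c+ against MHCII+CD11c- macrophages was -2.01 ± 0.51 (edgeR adjusted p = 0.0253). The *Itga6* call between the MHCII+ subsets was lost without MHCII+CD11c+ untreated replicate 1 or 3 or MHCII+CD11c- untreated replicate 2 or 3 (edgeR adjusted p from 0.0581 to 0.0974). With IC, *Itga6* measured 40.6, 55.9 and 55.2 CPM in LYVE1+CX3CR1+, 39.2, 3.77 and 41.1 CPM in MHCII+CD11c- and 24.7, 16.5 and 25.6 CPM in MHCII+CD11c+ macrophages, where the 3.77 CPM is 1 count in the smallest library. No *Itga6* difference between subsets with IC passed the threshold with all libraries, and that of LYVE1+CX3CR1+ over MHCII+CD11c+, 1.19 ± 0.47 (edgeR adjusted p = 0.0802), passed without MHCII+CD11c- IC replicate 2 or MHCII+CD11c+ untreated replicate 2 or 3 (edgeR adjusted p = 0.0364, 0.0492 and 0.0212).

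*Itga9*, a receptor chain for tenascin C and VCAM1, fell from LYVE1+CX3CR1+ to MHCII+CD11c+ macrophages. It measured 141, 165 and 180 CPM in untreated LYVE1+CX3CR1+, 48.8, 100.2 and 82.7 CPM in MHCII+CD11c- and 34.7, 38.1 and 41.5 CPM in MHCII+CD11c+ macrophages, and no 2 groups overlapped. *Itga9* was 1.07 ± 0.22 log2 units higher in LYVE1+CX3CR1+ than in MHCII+CD11c- (edgeR adjusted p = 0.00173) and 2.09 ± 0.22 higher than in MHCII+CD11c+ macrophages (edgeR adjusted p = 8.97e-08). The step between the MHCII+ subsets, -1.02 ± 0.23 for MHCII+CD11c+ against MHCII+CD11c- (edgeR adjusted p = 0.0118), was lost without MHCII+CD11c+ untreated replicate 1 or MHCII+CD11c- untreated replicate 2 or 3 (edgeR adjusted p = 0.0584, 0.112 and 0.0634).

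With IC, *Itga9* measured 122, 145 and 139 CPM in LYVE1+CX3CR1+, 78.4, 90.4 and 107 CPM in MHCII+CD11c- and 50.9, 39.3 and 57.3 CPM in MHCII+CD11c+ macrophages. The order of the subsets was the one of untreated mice and no groups overlapped. The difference of *Itga9* between LYVE1+CX3CR1+ and MHCII+CD11c+ macrophages was 1.46 ± 0.23 (edgeR adjusted p = 2.64e-05), and that to MHCII+CD11c-, 0.53 ± 0.23, did not pass (edgeR adjusted p = 0.156). *Itga9* in MHCII+CD11c+ against MHCII+CD11c- macrophages was at -0.93 ± 0.25 (edgeR adjusted p = 0.0384), a call lost without any 1 of 7 libraries, among them MHCII+CD11c+ IC replicates 1 and 2 (edgeR adjusted p = 0.0926 and 0.192) and MHCII+CD11c- IC replicate 3 (edgeR adjusted p = 0.182). The log2 fold change of *Itga9* with IC was -0.26 ± 0.21 in LYVE1+CX3CR1+, 0.28 ± 0.24 in MHCII+CD11c- macrophages and 0.37 ± 0.24 in the MHCII+CD11c+ subset, none past the threshold.

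*Itgav*, the alphaV chain that binds the RGD motif of vitronectin, fibronectin and latent TGF-beta, was highest in LYVE1+CX3CR1+ macrophages. It measured 496, 382 and 412 CPM in untreated LYVE1+CX3CR1+, 183, 144 and 212 CPM in MHCII+CD11c- and 131, 73.6 and 99.3 CPM in MHCII+CD11c+ macrophages, and no 2 groups overlapped. *Itgav* in LYVE1+CX3CR1+ macrophages exceeded that in MHCII+CD11c- by 1.26 ± 0.22 log2 units (edgeR adjusted p = 0.000304) and that in MHCII+CD11c+ by 2.08 ± 0.22 units (edgeR adjusted p = 9.15e-08). The step between the MHCII+ subsets, -0.82 ± 0.23 for MHCII+CD11c+ against MHCII+CD11c- (edgeR adjusted p = 0.0407), was lost in 9 of 18 fits that left out 1 library, with edgeR adjusted p of 0.205 without MHCII+CD11c+ untreated replicate 2, 0.203 without MHCII+CD11c- untreated replicate 3, 0.132 without MHCII+CD11c+ untreated replicate 3 and 0.0504 to 0.0718 without the others.

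With IC, *Itgav* measured 332, 348 and 409 CPM in LYVE1+CX3CR1+, 306, 158 and 181 CPM in MHCII+CD11c- and 97.2, 134 and 116 CPM in MHCII+CD11c+ macrophages. LYVE1+CX3CR1+ libraries were still the highest, with a difference of 1.63 ± 0.22 to MHCII+CD11c+ (edgeR adjusted p = 4.94e-06) and of 0.76 ± 0.23 to MHCII+CD11c- macrophages (edgeR adjusted p = 0.0333). The second *Itgav* call was lost without MHCII+CD11c- IC replicate 2 or 3 or LYVE1+CX3CR1+ IC replicate 2 or 3 (edgeR adjusted p from 0.0655 to 0.116). *Itgav* in MHCII+CD11c+ against MHCII+CD11c- macrophages with IC was at -0.88 ± 0.24 (edgeR adjusted p = 0.0411), lost in 11 of 18 such fits (edgeR adjusted p up to 0.228, reached without MHCII+CD11c- IC replicate 1, and 0.170, 0.0633 and 0.107 without MHCII+CD11c+ IC replicates 1, 2 and 3). The log2 fold change of *Itgav* with IC was -0.25 ± 0.21 in LYVE1+CX3CR1+, 0.25 ± 0.23 in MHCII+CD11c- macrophages and 0.20 ± 0.23 in the MHCII+CD11c+ subset, none past the threshold.

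*Itgb5*, the beta5 partner of alphaV, was highest in LYVE1+CX3CR1+ and lowest in MHCII+CD11c+ macrophages. It measured 975, 856 and 915 CPM in untreated LYVE1+CX3CR1+, 178, 159 and 335 CPM in MHCII+CD11c- and 58.3, 44.0 and 41.0 CPM in MHCII+CD11c+ macrophages, and no 2 groups overlapped. *Itgb5* in LYVE1+CX3CR1+ macrophages was 19.1-fold that in MHCII+CD11c+ (4.26 ± 0.27 log2 units, edgeR adjusted p = 7.99e-12) and 4.07-fold that in MHCII+CD11c- macrophages (2.02 ± 0.24, edgeR adjusted p = 2.04e-06). It was also lower in MHCII+CD11c+ than in MHCII+CD11c- macrophages, with a log2 fold change of -2.23 ± 0.26 (edgeR adjusted p = 1.03e-05), and these 3 calls of *Itgb5* held in each alternative fit and without any 1 library. Fibroblasts of the synovium also make *Itgb5*. Fibroblast markers (12 measured) summed to 697 CPM in LYVE1+CX3CR1+ untreated replicate 1 and to 82.1 and 66.8 CPM in replicates 2 and 3, where *Itgb5* measured 856 and 915 CPM. Of the 697 CPM, 601 came from *Prg4*, and each other marker reached at most 48.3 CPM (*Pdpn*) in any untreated LYVE1+CX3CR1+ library. The 12 fibroblast markers summed to 72.5 to 132 CPM in the untreated MHCII+ libraries, and the part of fibroblasts in the *Itgb5* values was not tested.

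With IC, *Itgb5* measured 1071, 959 and 906 CPM in LYVE1+CX3CR1+, 319, 215 and 455 CPM in MHCII+CD11c- and 137, 88.1 and 129 CPM in MHCII+CD11c+ macrophages. All 3 MHCII+CD11c+ libraries with IC were above all 3 untreated ones, while the groups overlapped in the other 2 subsets. *Itgb5* rose in MHCII+CD11c+ macrophages by 1.29 ± 0.26 on the log2 scale, 2.45-fold (95% interval 0.77 to 1.81, edgeR adjusted p = 0.0152, DESeq2 adjusted p = 0.000555), and was the only chain past the threshold there, where 0.673% of all genes passed. The call was lost without MHCII+CD11c+ untreated replicate 2 or 3 or IC replicate 1 or 3 (edgeR adjusted p = 0.102, 0.105, 0.0747 and 0.135). The 3 neutrophil markers given with *Itgam* rose in the same libraries. Of 8 monocyte markers tested there 2 passed the threshold, both higher with IC, and the median log2 fold change of the 8 was 1.86. Among these markers *Ccr2* went the other way, with means of 776 CPM untreated and 562 CPM with IC. The part of neutrophils and monocytes in the *Itgb5* value was not tested. The changes in MHCII+CD11c- (0.59 ± 0.25) and LYVE1+CX3CR1+ macrophages (0.10 ± 0.23) did not pass (edgeR adjusted p = 0.250 and 0.972), and the difference between the IC responses of LYVE1+CX3CR1+ and MHCII+CD11c+ macrophages, -1.19 ± 0.35, had an edgeR adjusted p of 0.824. With IC, *Itgb5* was still 1.53 ± 0.24 log2 units higher in LYVE1+CX3CR1+ than in MHCII+CD11c- macrophages (edgeR adjusted p = 0.000103, 0.0826 with a surrogate variable), and stood at -1.53 ± 0.26 in MHCII+CD11c+ against MHCII+CD11c- macrophages (edgeR adjusted p = 0.000721).

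**Figure D3:**
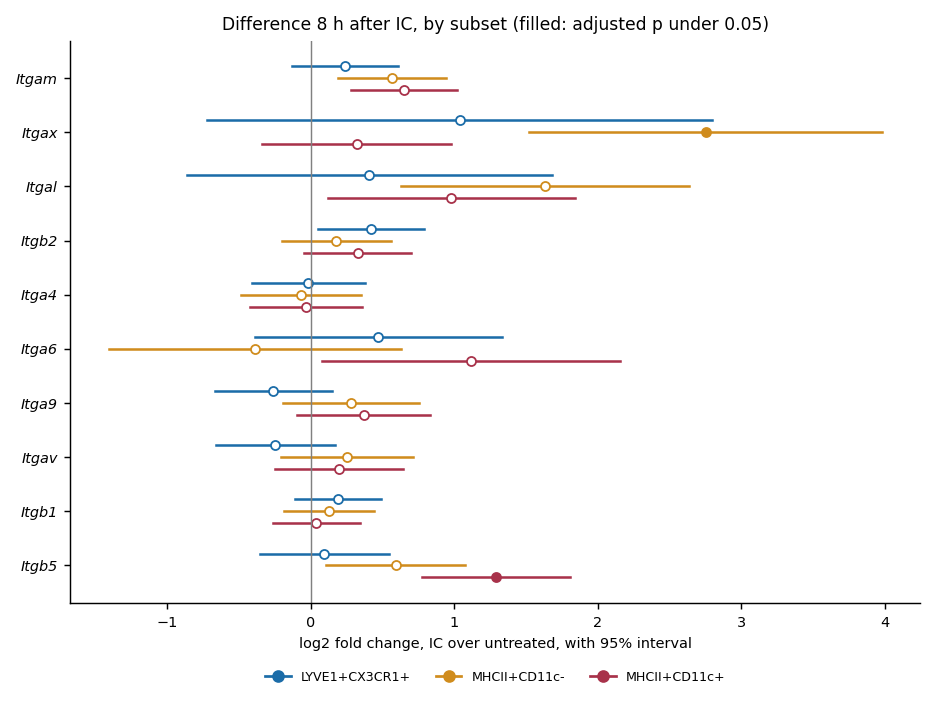
Log2 fold change of each chain 8 h after IC against untreated mice (horizontal axis) with its 95% interval, by subset, filled where the edgeR adjusted p was under 0.05. Only *Itgax* in MHCII+CD11c- (2.75) and *Itgb5* in MHCII+CD11c+ macrophages (1.29) are filled, and *Itgam* lies above 0 in each subset.

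Over the 10 chains, the response to IC thus passed the threshold in 1 chain in each MHCII+ subset and in 0 chains in the LYVE1+CX3CR1+ subset, where 0.464% of all genes passed and where 1 chain, *Itgb2*, had an unadjusted edgeR p under 0.05 and the DESeq2 Wald test called 0. The median log2 fold change of the 10 was 0.21 in LYVE1+CX3CR1+, 0.27 in MHCII+CD11c- macrophages and 0.35 in the MHCII+CD11c+ subset, against -0.02, -0.01 and -0.01 over all genes. A test of the difference between subsets called 0 of the 10 chains for each of the 3 pairs, by edgeR and by DESeq2, with 0, 1 and 1 chains at an unadjusted edgeR p under 0.05. Over all genes that test called 0.0% (LYVE1+CX3CR1+ and MHCII+CD11c-), 0.00948% (LYVE1+CX3CR1+ and MHCII+CD11c+) and 0.00948% (the MHCII+ subsets). With IC present, 7 of 10 chains differed between LYVE1+CX3CR1+ and MHCII+CD11c+ macrophages (19.7% of all genes), 6 between LYVE1+CX3CR1+ and MHCII+CD11c- (9.77%) and 4 between the MHCII+ subsets (2.84%). The 7 and the 4 include *Itgax*, by whose protein the MHCII+CD11c+ cells were sorted.

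**Figure D4:**
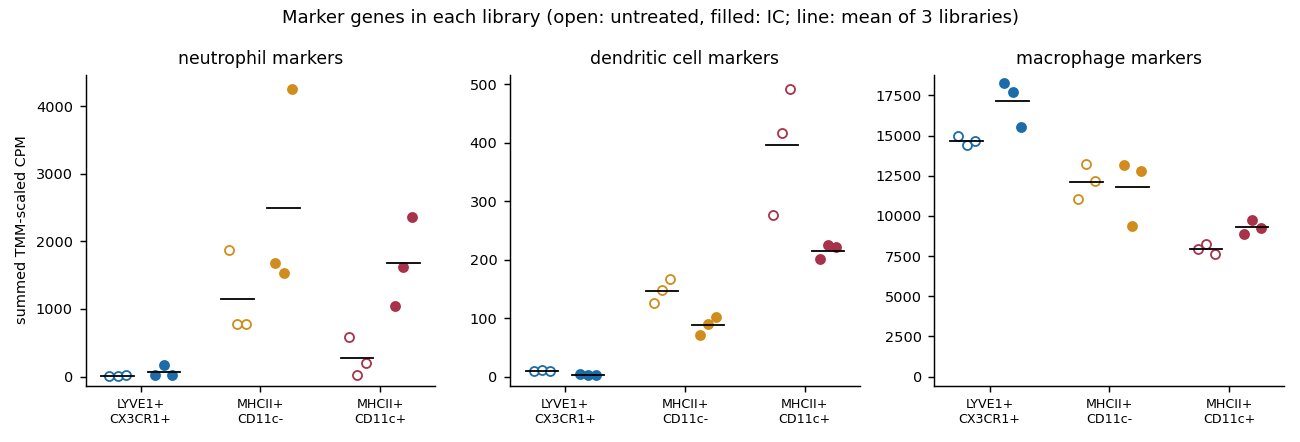
Summed TMM-scaled CPM (vertical axis, from 0) of the neutrophil, dendritic cell and macrophage marker lists in the 18 libraries, by subset, with open points for untreated mice, filled points for IC and a line at the mean of 3 libraries. Neutrophil markers reach 4255 CPM in the MHCII+ libraries with IC and stay at or under 170 CPM in LYVE1+CX3CR1+ libraries.

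Per kilobase of exon, which allows levels to be set between genes, the order in untreated LYVE1+CX3CR1+ macrophages was *Itgb2* (343 ± 17.7 CPM per kb, SD, n = 3), *Itgb5* (258), *Itgam* (245 ± 16.5), *Itgb1* (183), *Itgav* (40.0), *Itga9* (21.1), *Itga4* (12.96), *Itga6* (4.05), *Itgal* (0.96) and *Itgax* (0.36). *Itgb5* and *Itgam* overlapped between libraries, as did *Itgal* and *Itgax*, and the other neighbours did not. In untreated MHCII+CD11c+ macrophages the order of the levels per kb was *Itgb2* (262), *Itgam* (188), *Itgb1* (134), *Itgax* (56.1), *Itga4* (23.6), *Itgb5* (13.4), *Itgal* (11.04), *Itgav* (9.44), *Itga9* (4.95) and *Itga6* (1.18). *Itgb5* thus stood in the second place in one subset and in the sixth in the other, where it overlapped with *Itgal*, as *Itgal* did with *Itgav*. In untreated MHCII+CD11c- macrophages *Itgb2* (236), *Itgam* (166) and *Itgb1* (134) also came first, followed by *Itgb5* (63.0), *Itga4* (16.8), *Itgav* (16.7), *Itga9* (10.05), *Itgal* (4.90), *Itga6* (4.58) and *Itgax* (1.25). There *Itga4* overlapped with *Itgav*, and *Itgal* with both *Itga9* and *Itga6*.

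**Figure D5:**
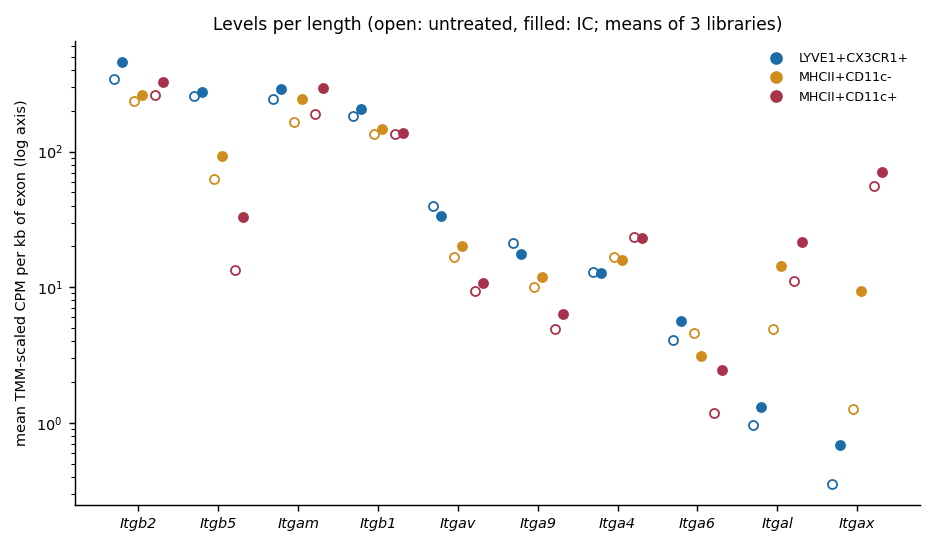
Mean TMM-scaled CPM per kb of exon (log vertical axis, 3 libraries a point) of the 10 chains, ordered by their level in untreated LYVE1+CX3CR1+ macrophages, with open points for untreated mice and filled points for IC. *Itgb2*, *Itgam* and *Itgb1* stay at 134 CPM per kb or more in each subset, while *Itgb5* and *Itgax* run in opposite directions.

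Of 17 further integrin chains in the files 5 passed the filter on low counts, *Itga1*, *Itga5*, *Itgad*, *Itgb3* and *Itgb7*. *Itga5*, the fibronectin receptor chain, measured 232, 260 and 251 CPM in untreated LYVE1+CX3CR1+, 159, 137 and 159 CPM in MHCII+CD11c- and 150, 198 and 194 CPM in MHCII+CD11c+ macrophages, higher in LYVE1+CX3CR1+ by 0.70 ± 0.16 (edgeR adjusted p = 0.00457) and 0.46 ± 0.16 (edgeR adjusted p = 0.0387) log2 units. *Itgad*, the alphaD partner of beta2 next to *Itgax* on chromosome 7, had 0 counts in all 6 LYVE1+CX3CR1+ libraries, which allows up to 3 counts a library, and 26, 3 and 27 counts in untreated MHCII+CD11c+ macrophages. *Itga1*, a collagen receptor chain, had 27, 12 and 37 counts in untreated MHCII+CD11c+ libraries and at most 3 in any LYVE1+CX3CR1+ library, and was called between these subsets with and without IC (edgeR adjusted p = 0.00202 and 0.00331). *Itgb3*, the other main partner of alphaV, reached at most 31.0 CPM in any library and was lower in untreated LYVE1+CX3CR1+ than in either MHCII+ subset (edgeR adjusted p = 0.0160 and 0.00185). None of the 5 passed the threshold for IC in any subset.

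Of 39 genes of integrin ligands 37 were in the files and 22 were tested. Between untreated LYVE1+CX3CR1+ and MHCII+CD11c+ macrophages 8 were higher and 3 lower in the former (median log2 fold change 0.05, with 21.8% of all genes passing), 4 were higher and 2 lower in LYVE1+CX3CR1+ than in MHCII+CD11c- macrophages (median 0.27, with 11.4% of all genes passing), and 1 was lower in MHCII+CD11c+ than in MHCII+CD11c- (median -0.38, with 3.49% of all genes passing). None of the ligand genes passed for IC in any subset. *Cyr61*, a matrix ligand of alphaV and alpha6 integrins, was at 169 ± 74.7 CPM (SD, n = 3) in untreated LYVE1+CX3CR1+ against 24.4 ± 12.2 CPM in MHCII+CD11c+ macrophages, 2.82 ± 0.40 log2 units higher (edgeR adjusted p = 6.45e-06). *Ctgf*, a relative of *Cyr61*, was higher there too, at 21.6 ± 6.27 CPM (at most 46 counts a library, against at most 1 in untreated MHCII+CD11c+). Only LYVE1+CX3CR1+ libraries reached 10 counts of *Ctgf*, so it passed the filter through that subset and its difference is a description. *C3*, whose fragment iC3b is bound by alphaM and alphaX with beta2, went the other way, at 2.66 ± 2.36 CPM in LYVE1+CX3CR1+ against 45.2 ± 24.3 CPM in MHCII+CD11c- and 53.7 ± 18.6 CPM in MHCII+CD11c+ macrophages (edgeR adjusted p = 0.00107 and 0.000105). *Vcam1*, the ligand of alpha4 and alpha9, was lower in LYVE1+CX3CR1+ than in both MHCII+ subsets, with levels in the latter that spread widely (25.4 ± 25.8 and 32.8 ± 42.6 CPM).

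Of 51 tested genes of integrin activation and adhesion machinery 11 were higher and 12 lower in untreated LYVE1+CX3CR1+ than in MHCII+CD11c+ macrophages (median log2 fold change 0.12), where 21.8% of all genes passed in either direction. *Fermt2* (kindlin-2), an activator of beta1 and beta3 integrins, was at 69.3 ± 12.1 CPM (SD, n = 3) against 8.23 ± 6.34 CPM, and *Tgfb1i1* (Hic-5), a focal adhesion adaptor, at 9.59 ± 1.70 against 0.34 ± 0.29 CPM. The *Tgfb1i1* values rest on at most 17 counts a library against at most 1. Only LYVE1+CX3CR1+ libraries reached 10 counts of *Tgfb1i1*, so it passed the filter through that subset and its difference is a description. *Cytip*, which restrains the beta2 activator cytohesin-1, was at 5.62 ± 3.05 CPM in LYVE1+CX3CR1+ and 206 ± 57.0 CPM in MHCII+CD11c+ macrophages, a log2 fold change of -5.16 ± 0.40 (edgeR adjusted p = 4.24e-10), and *Parvg* (gamma-parvin), the leukocyte parvin, was lower in LYVE1+CX3CR1+ than in both MHCII+ subsets.

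Of 18 tested membrane partners of integrins, 6 were higher and 4 lower in untreated LYVE1+CX3CR1+ than in MHCII+CD11c+ macrophages (median log2 fold change 0.10), beside the 21.8% of all genes. The tetraspanin *Cd63* stepped down with the matrix chains, from 269 ± 34.1 CPM (SD, n = 3) in LYVE1+CX3CR1+ to 153 ± 43.7 CPM in MHCII+CD11c- and 90.7 ± 10.8 CPM in MHCII+CD11c+ macrophages, and *Tspan4*, another tetraspanin, was 1.27 ± 0.34 log2 units higher in LYVE1+CX3CR1+ than in MHCII+CD11c+ macrophages. *Sdc1* and *Sdc4*, syndecans that bind matrix together with integrins, were lower in LYVE1+CX3CR1+ than in both MHCII+ subsets, and *Sdc4* did not pass between the latter (-0.22 ± 0.20, edgeR adjusted p = 0.672). *Sdc1* was at 2.29 ± 1.36 CPM in LYVE1+CX3CR1+, 30.1 ± 18.1 CPM in MHCII+CD11c- and 67.9 ± 28.9 CPM in MHCII+CD11c+ macrophages, and *Sdc4* at 47.01 ± 17.02, 151 ± 10.4 and 129 ± 6.90 CPM. LYVE1+CX3CR1+ differed from the 2 others with edgeR adjusted p of 0.000192 and 5.24e-07 for *Sdc1* and 6.10e-06 and 9.17e-06 for *Sdc4*. *Sdc4* rose with IC in MHCII+CD11c+ macrophages, to 260 ± 25.1 CPM (1.003 ± 0.20 log2 units, edgeR adjusted p = 0.0140). It was the only partner past the threshold for IC, in a comparison where 0.673% of all genes passed.

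The genes closest in pattern to 4 of the chains, by the correlation of log2 CPM over the 18 libraries among 8836 genes, are given as a description, since the libraries share subsets and treatment. For *Itgb5* they were *Vsig4* (r = 0.98), a complement receptor of tissue macrophages, *Vcan* (r = 0.98) and *Pmepa1* (r = 0.98). For *Itgav* they were *Olfml3* (r = 0.96), *Fmnl3* (r = 0.95) and *Emp1* (r = 0.95). For *Itgax* they were *Mras* (r = 0.93), *Rpl4* (r = 0.92) and *Ptprc* (r = 0.92), the last encoding the leukocyte antigen CD45, and for *Itgal* they were *C3* (r = 0.93), *Runx3* (r = 0.92) and *Csf2rb* (r = 0.91). Among the 10 chains themselves, *Itgb5* correlated with *Itga9* (r = 0.94) and *Itgav* (r = 0.93), and *Itgax* with *Itgal* (r = 0.85), over the same libraries.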

How the data were processed

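Reads were trimmed by the authors with Trim Galore and aligned with HISAT2 to mm10, and featureCounts gave the deposited raw counts per gene symbol. Libraries were made with a stranded total RNA kit; tool versions, annotation and the strand setting of the counting are not given in the sources used here. A combined table was equal to the separate files in all 18 columns and was not used. Groups came from the sample titles. Replicate libraries were compared, and 0 pairs were identical.

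From the deposited counts, edgeR 4.0.16 (R 4.3.3) gave CPM with TMM factors, and filterByExpr (minimum count 10, minimum total 15) kept 10550 genes. One quasi-likelihood model of edgeR with a term for each of the 6 groups was fitted to the 18 libraries, and each comparison was adjusted by Benjamini-Hochberg over all genes tested, with a threshold of 0.05. An SE is the log2 fold change divided by the square root of F, and 95% intervals use the normal quantile. Levels per kb used the summed exon length of GENCODE for GRCm38. Similar genes had a mean log2 CPM of at least 3.

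The 10 chains and the gene lists were chosen with earlier results of these data known. Named were the 10 chains, other chains past the filter, up to 4 called genes a list with the largest fold change, and 3 similar genes for 4 chains. Scripts were tested on simulated data. Alternatives were DESeq2 size factors, the DESeq2 1.42.0 Wald test, no filter, at least 10 counts in every library, only the libraries compared, 1 surrogate variable (sva 3.50.0), a replicate block and leaving out each library. P-values measure the spread between these pooled libraries, and limits from a count of 0 cover counting error only. Libraries of other genotypes were not analysed here. Responses of the adhesion machinery genes to IC are not reported here.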

Additional observations from a re-analysis of the deposited data

How the results depend on the processing

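The 52 differences of single chains that were called with all libraries or under an alternative were refitted under each alternative other than the surrogate variable. Of the refitted values, 1110 stayed on their side of the threshold, 69 fell below it, 50 rose above it and 0 changed sign. They include fits that left out a library of a group outside the comparison, in which the sign could hardly change. The number of the 10 chains called between untreated LYVE1+CX3CR1+ and MHCII+CD11c- macrophages, 4, became 7 with the DESeq2 Wald test, no filter, only the libraries compared or the replicate block by pool. With at least 10 counts in every library (3798 genes tested, without the low chains) the counts became 5 (from 8) between LYVE1+CX3CR1+ and MHCII+CD11c+, 3 (from 5) between the MHCII+ subsets and 0 (from 1) for IC in MHCII+CD11c- macrophages. In a fit to only the libraries compared they became 3 (from 6) for LYVE1+CX3CR1+ against MHCII+CD11c- with IC, 2 (from 4) between the MHCII+ subsets with IC, 1 (from 0) for IC in LYVE1+CX3CR1+, 0 (from 1) for IC in MHCII+CD11c- and 3 (from 1) for IC in MHCII+CD11c+ macrophages. With 1 surrogate variable, 2 chains were called for LYVE1+CX3CR1+ against MHCII+CD11c- with IC and 0 for IC in MHCII+CD11c-. The DESeq2 Wald test called 0 for IC in MHCII+CD11c- macrophages and 2 for IC in MHCII+CD11c+, and no filter called 3 in each. No filter also called 1 chain for the difference of IC responses between LYVE1+CX3CR1+ and MHCII+CD11c+ (*Itgb5*) and 1 between the MHCII+ subsets (*Itgax*), where the main test called 0. The cause of these shifts was not tested, and the share of all genes called in each alternative fit is not given here. A shift in a count is therefore not a result about the 10 chains in particular.

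Leaving out each library in turn gave 3 to 7 (LYVE1+CX3CR1+ against MHCII+CD11c-), 7 to 10 (against MHCII+CD11c+) and 2 to 5 (MHCII+CD11c+ against MHCII+CD11c-) called chains in untreated mice, 4 to 6, 7 to 9 and 2 to 4 with IC, 0 to 0, 0 to 3 and 0 to 2 for IC in LYVE1+CX3CR1+, MHCII+CD11c- and MHCII+CD11c+ macrophages, and 0 to 0 for each difference of responses. The highest counts of 7, 10, 9, 3 and 2 came without MHCII+CD11c- IC replicate 2, the library with 245903 counts. The share of all genes called without that library is not given here either, so these counts are not read as particular to the integrins.

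Replicate numbers are shared by the groups, but the labels do not say that a number marks a shared pool. Deviations of libraries with the same number and treatment correlated between -0.07 and 0.18 (median 0.05, 18 pairs). Those with another number and the same treatment correlated between -0.14 and 0.09 (median -0.03, 36 pairs). These ranges overlapped and the numbers were not taken as pairs, though a weak pairing is not excluded. With the replicate block by pool the counts were 7, 8 and 5 in untreated mice, 6, 8 and 4 with IC, and 0 for the differences of responses. With the replicate number as a block across treatment they were 0, 1 and 1 for IC. Of 60 mean CPM values, 59 moved by less than 1 SD when library totals replaced TMM. Depth limits *Itgax* in LYVE1+CX3CR1+ and MHCII+CD11c- macrophages and *Itga6* in MHCII+CD11c- with IC, which rest on 0 to 41 counts a library. It also limits *Itgal* in LYVE1+CX3CR1+ macrophages, with 4 to 23 counts a library untreated and 4 to 35 with IC. *Itgal* in MHCII+CD11c- macrophages had as few as 8 counts with and without IC. *Itga6* in untreated MHCII+CD11c+ macrophages had 2 to 32 counts.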
